A study of Caenorhabditis elegans with 2 samples.

Results

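The cytosolic ribosomal protein genes of Caenorhabditis elegans were examined as binding places of HIF-1, the hypoxia-inducible transcription factor of the worm. Members were all protein-coding genes whose names begin with rpl- (large ribosomal subunit) or rps- (small subunit). They came to 78 of 19973 protein-coding genes, 47 of the large and 31 of the small subunit. HIF-1 binding was measured by ChIP-seq in whole L4 larvae of mixed sex, taken 52 hours after they had been synchronized by starvation at the L1 stage. They were of strain OR3349, in which HIF-1 carries a GFP-FLAG tag at its C-terminus, and chromatin was precipitated with an antibody against GFP. The 2 samples were biological replicates of 1 group. The sources used here do not give the oxygen level, and no other condition, no control library and no ChIP of another protein was analysed here. Whole larvae mix all tissues, so binding in few cells and weak binding in many cannot be told apart.

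HIF-1 is a basic helix-loop-helix PAS factor that binds DNA together with AHA-1, at sites built round a short core of ACGTG or GCGTG, the hypoxia response element. At normal oxygen the prolyl hydroxylase EGL-9 marks it for destruction, and at low oxygen it accumulates. Ribosomal proteins assemble with ribosomal RNA into the large subunit, which joins amino acids, and the small subunit, which decodes the messenger RNA. Making ribosomes is among the costliest tasks of a growing larva. Many worm messenger RNAs have their first bases replaced by a spliced leader, so an annotated start can be the splice acceptor site at which the leader joins and not the base at which transcription began.

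The authors' optimal list, which keeps regions that pass an irreproducible discovery rate (IDR) threshold over both replicates, held 3531 peaks on the ce11 build. Each peak has a summit and a signal, a value of the authors relative to a control alignment. The signal describes and ranks peaks within 1 list and is not scaled between lists. A gene was counted as having a peak when a summit lay from 1000 bp upstream to 200 bp downstream of one of its transcript starts. The 2 strongest peaks of the list lay upstream of egl-9, at -1747 bp with a signal of 7830, and of nhr-57, a nuclear receptor gene known as a HIF-1 target, at -200 bp with a signal of 4447. No read counts were given, so the depth is unknown.

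Of the 78 ribosomal protein genes, 63 had a peak (80.8%, 95% interval 70.3% to 88.8%), whereas 12.2% of all protein-coding genes had one. The 63 genes were served by 61 peaks. The genes are defined by name but were chosen by their measured peaks: the presence of an optimal IDR summit at many of them in these same data led to the choice. The share, the signals and the positions are therefore a description and were not tested. The sequences under their strongest summits are shown first, followed by the peaks' strength, position and neighbours.

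The strongest peaks at ribosomal protein genes carried the hypoxia response core in some cases and not in others. The 101 bases centred on the summit are given below, 5′ to 3′ on the strand of the gene, from the RefSeq copy of WBcel235 (the same assembly as ce11), with ACGTG or GCGTG on either strand in capitals. The windows are chrIII:3867530-3867630 (plus strand) for rpl-3, chrIV:654875-654975 (minus strand) for rpl-15, chrIII:7854646-7854746 (plus strand) for rpl-35, chrIV:4750027-4750127 (minus strand) for rpl-20 and chrIV:12391276-12391376 (minus strand) for rps-23. They were chosen because they are the strongest peaks at ribosomal protein genes in the list.
rpl-3: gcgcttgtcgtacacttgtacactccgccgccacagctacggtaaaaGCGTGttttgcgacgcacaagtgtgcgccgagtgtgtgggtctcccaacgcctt
rpl-15: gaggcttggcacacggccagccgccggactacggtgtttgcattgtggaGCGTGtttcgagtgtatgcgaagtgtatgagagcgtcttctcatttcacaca
rpl-35: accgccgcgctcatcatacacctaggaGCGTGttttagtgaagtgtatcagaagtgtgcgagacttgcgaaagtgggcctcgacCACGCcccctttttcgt
rpl-20: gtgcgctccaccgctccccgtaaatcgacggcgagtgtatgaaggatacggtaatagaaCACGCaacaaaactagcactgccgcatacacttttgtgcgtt
rps-23: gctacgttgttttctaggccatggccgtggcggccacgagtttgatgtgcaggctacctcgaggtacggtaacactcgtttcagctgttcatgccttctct
In rpl-3 the core lay 1 bp from the summit. The rps-23 window held no core, although its peak was the third strongest.

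Over all 61 peaks the core had no higher share than at other promoters. It was found within 50 bp of the summit in 24 of 61 peaks (39.3%, 27.1% to 52.7%), against 42.5% of the 1949 promoter peaks of other genes. How often so short a core falls in windows of this length without a peak was not counted, so these shares do not show that it is bound. Peaks in the windows of large subunit genes held it in 17 of 37 cases, and those of small subunit genes in 9 of 27, a difference within both intervals (29.5% to 63.1% and 16.5% to 54.0%). The core was in 15 of the 30 strongest peaks (50%) and 9 of the 31 weakest (29.0%), both shares inside the interval over all 61. Other promoter peaks were not split in this way. Peaks with a core had a median signal of 297, those without one 197, with ranges of 96.0 to 1257 and 96.7 to 733 that overlap over most of their length. The E-box CACGTG, searched likewise, was in 2 of 61 windows, against 4.98% of the windows of other genes. The TATA-box letters TATAAA, searched on the gene's strand, were in 0 of 61, which by a floor of 3 counts allows a share of up to 4.92% (5.87% by the exact interval), against 2.41% of the others. The repeat letters GAGAG, on either strand, were in 13 of 61 (21.3%), against 39.5% of the others.

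Other short words recurred among the summits. The 6 words of 8 bases below were chosen after the sequences had been seen, as those whose share differed most between the ribosomal protein windows and other promoter peaks and which had no run of 5 bases in common with a word already chosen. Their shares among these 61 windows are therefore a description of the choice. Both strands were searched. The word GCGAGACC was in 18 of 61 windows, against 3.34% of the 1949 other promoter peaks. AACGAGTG was in 13 of 61 windows, against 1.23%. ATACTCAG was in 12, against 0.410%. CGATTTAC was also in 12, against 1.28%. ACCGTAGT was in 11, against 1.08%, and AAAGGCGC in 10, against 2.00%. In windows of the same length centred 300 bp upstream of the starts of the 19895 other genes, whether or not they had a peak, the words were in between 0.151% and 0.774%. Windows that hold several of them are shown, with the words on either strand in capitals. They lie at chrIII:7208063-7208163 (plus strand) for rpl-6, chrIV:5947883-5947983 (minus strand) for rps-25, chrV:20479261-20479361 (plus strand) for rpl-2, chrII:5055322-5055422 (plus strand) for rpl-22 and chrV:7776295-7776395 (plus strand) for rps-30.
rpl-6: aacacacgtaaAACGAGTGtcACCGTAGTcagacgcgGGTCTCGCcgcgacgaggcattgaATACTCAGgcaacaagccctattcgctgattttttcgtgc
rps-25: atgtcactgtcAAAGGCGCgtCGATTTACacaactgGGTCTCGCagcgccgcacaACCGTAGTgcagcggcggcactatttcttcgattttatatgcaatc
rpl-2: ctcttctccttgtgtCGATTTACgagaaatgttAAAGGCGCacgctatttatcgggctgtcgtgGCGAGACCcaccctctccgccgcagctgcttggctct
rpl-22: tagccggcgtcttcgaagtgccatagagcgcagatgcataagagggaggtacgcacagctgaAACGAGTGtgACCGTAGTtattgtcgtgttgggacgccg
rps-30: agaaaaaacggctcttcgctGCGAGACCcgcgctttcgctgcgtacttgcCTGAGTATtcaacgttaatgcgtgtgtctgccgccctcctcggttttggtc
In rpl-6 and rpl-22, and in rpl-11.2, which is not shown, AACGAGTG and ACCGTAGT stood side by side with a gap of a pair of bases, in the same order. Words can thus lie within a longer shared stretch, and their counts are not independent.

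At least 1 of the 6 words was in 45 of the 61 windows (73.8%), in 7.59% of other promoter peaks and in 1.51% of the 1521 peaks outside promoter windows. Several of them together were in 22 windows (36.1%), against 1.39% of other promoter peaks. The choice of words used the summit windows, and stretches of equal length 250 bp away on either side of these summits held any word in 3 and 1 of 61 cases. The peaks with a word were not the stronger ones, with a median signal of 220 over 45 peaks, against 275 over the 16 without. Of these 16, rpl-3, rpl-35, rps-19, rps-26 and rpl-12 were among the 10 strongest.

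The words were also searched in the 500 bases upstream of gene starts. The 63 ribosomal protein genes with a peak supplied the words, and 50 of them had one there, which follows from the choice. The 15 without a peak supplied none, and 6 of them had a word. In these 15 genes GCGAGACC was in 4, AAAGGCGC in 4 and CGATTTAC in 1, whereas AACGAGTG, ATACTCAG and ACCGTAGT were in none. Of the 19895 other protein-coding genes 9.69% had one, and of the 2364 of them with a peak 18.4%. Those of their peaks that no ribosomal protein gene shares were the contrast in the choice. However, 33 of the 2364 overlapped a window in which the words were chosen, and without these 33 the shares were 9.57% and 17.5%. Among 6 other genes of the cytosolic ribosome, 4 had a word: rack-1, a scaffold protein on the small subunit, rla-0, the P0 protein of the ribosomal stalk, rla-2, another stalk protein, and ubq-2, which encodes ubiquitin fused to a large subunit protein. In these 6 genes GCGAGACC was in 3, AAAGGCGC in 2 and CGATTTAC in 1, and AACGAGTG, ATACTCAG and ACCGTAGT were again absent. None of these 6 genes, of the mitochondrial list or of the elongation factors overlapped a window in which the words were chosen. Ribosome biogenesis genes had one in 8 of 17 cases, among them fib-1, the fibrillarin that methylates ribosomal RNA. Of these 17, GCGAGACC was in 5, ACCGTAGT in 2, and ATACTCAG and AAAGGCGC in 1 each. One of the 17, lpd-7, shares the rpl-9 peak and overlaps its window, and without it the count was 7 of 16. Genes of the mitochondrial ribosome, which is built from other proteins, had one in 8 of 70 cases (11.4%), and elongation factors in 1 of 6. The mitochondrial share was close to that of all other genes.

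**Figure D1:**
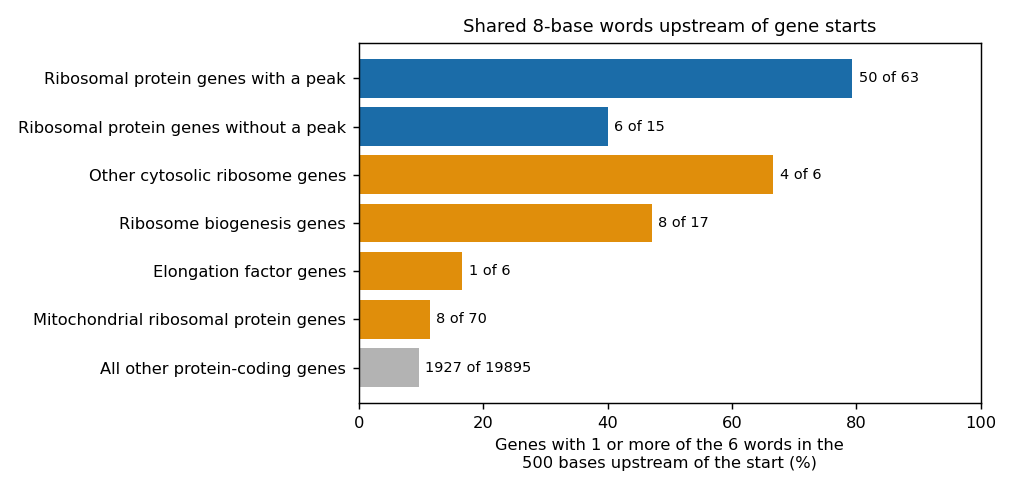
Share of genes (horizontal axis, percent) with 1 or more of the 6 words in the 500 bases upstream of the start, by gene group (bars, with counts). The words were chosen in the windows of the ribosomal protein genes with a peak, of which 50 of 63 have one. Among all other protein-coding genes 33 overlap those windows, including the biogenesis gene lpd-7. Of the genes that supplied no window, 4 of 6 other cytosolic ribosome genes have one against 8 of 70 mitochondrial ribosomal protein genes. The bars pool the 6 words. AACGAGTG, ATACTCAG and ACCGTAGT are in none of the other cytosolic ribosome genes and none of the ribosomal protein genes without a peak.

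The large subunit had the strongest peaks. That of rpl-3, whose protein lies near the peptidyl transferase centre in yeast ribosomes, had a signal of 1257 in the optimal list and rank 38 of 3531. It had 490 (rank 37) in replicate 1 and 768 (rank 42) in replicate 2. The rpl-15 peak had 914 (rank 69), with 330 in replicate 1 and 586 in replicate 2 and rank 69 in each. The same 2 genes thus led in both replicates. That of rpl-35, a protein at the exit of the nascent chain tunnel in yeast, had 660 in the optimal list, with 257 in replicate 1 and 407 in replicate 2. The rpl-20 peak had 614, with 251 in replicate 1 and 358 in replicate 2. The peaks of rpl-12, at the base of the stalk, and of rpl-1, which forms the L1 stalk, had 532 and 510 in the optimal list. In replicate 1 they had 203 and 175, and in replicate 2, 329 and 342, so their order differed between replicates. The rpl-1 window alone held a second peak, at -460 bp with a signal of 96.0, the weakest of all 61.

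The small subunit peaks began lower. The strongest was that of rps-23, a protein of the decoding centre, with 733 (rank 98), 266 in replicate 1 and 472 in replicate 2. Next came rps-19, whose human counterpart is mutated in Diamond-Blackfan anaemia, with 577, 225 in replicate 1 and 349 in replicate 2. The rps-26 peak had 554, with 201 in replicate 1 and 351 in replicate 2. That of rps-24 had 514, with 198 in replicate 1 and 313 in replicate 2. All 4 kept a rank between 94 and 216 in each replicate list. At the lower end, rps-3, a protein at the messenger RNA entry in yeast, had 96.7 (rank 3457), close to the lowest signal of the list, 95.1. It had 31.2 (rank 6226) in replicate 1 and 68.5 (rank 2924) in replicate 2. Peaks of rps-5, rps-25, rps-17 and rps-7 had 118, 118, 118 and 119. In replicate 1 these had 47.2, 49.5, 36.4 and 50.9, and in replicate 2, 68.1, 56.5, 77.2 and 70.4. The 4 were alike in the optimal list, but rps-17 was the lowest of them in replicate 1 and the highest in replicate 2.

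Both subunits overlapped over most of their range. The median signal was 244 for the 37 peaks of large subunit genes (quartiles 177 and 325) and 212 for the 27 peaks of small subunit genes (quartiles 181 and 403), with 3 peaks counted in both. A peak was found at 36 of 47 large subunit genes (76.6%, 62.0% to 87.7%) and 27 of 31 small subunit genes (87.1%, 70.2% to 96.4%), intervals that overlap. Over all 61 peaks the median was 244, against 168 for the other promoter peaks, and their median percentile in the list was 74.9. Among the 1765 strongest peaks of the list, 50 of the 78 genes still had a peak, against 7.1% of all genes.

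**Figure D2:**
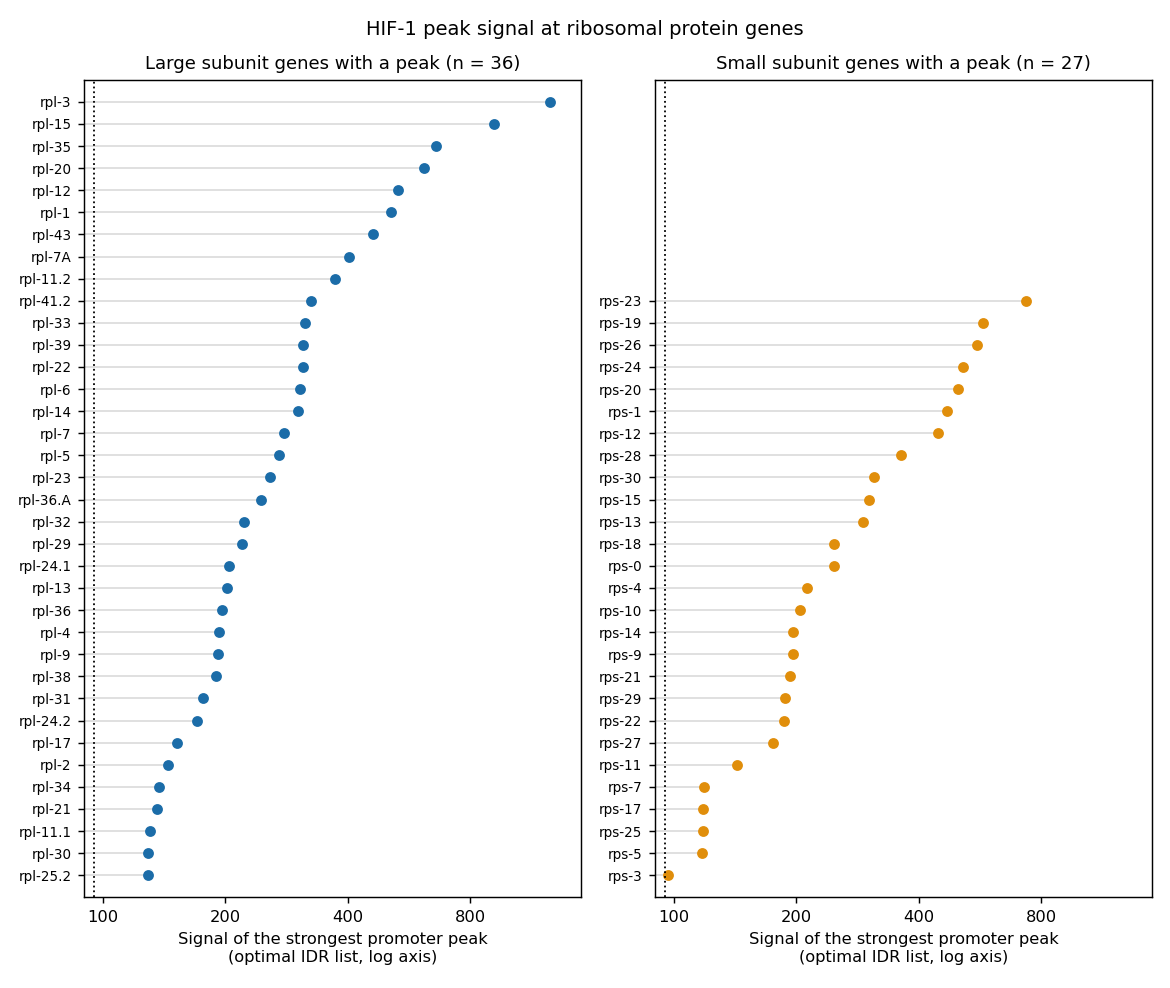
Signal of the strongest promoter peak (horizontal log axis, authors' value in the optimal IDR list) of each ribosomal protein gene with a peak, large subunit left and small subunit right, 1 point per gene. The dotted line marks the lowest signal in the list, 95.1, and the points run from rps-3 at 96.7 to rpl-3 at 1257.

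Nearly all of the peaks were found in both replicates, as were those at other promoters, and the optimal list is itself selected for agreement of the replicates. A summit of both replicates' candidate lists lay within 100 bp of 60 of the 61 peaks (98.4%), against 96.6% of other promoter peaks. The summits of the replicates were a median of 10 bp apart, against 20 bp at other promoter peaks. Those other peaks were weaker, with a median signal of 168 against 244, and the distances were not compared at equal signal. Across these 60 peaks the ranks had a Spearman correlation of 0.927, a description over peaks that share both libraries and the control. With each replicate list cut down to its 3531 strongest regions, both still held 55 of the 61. On its own, so cut, replicate 1 gave a peak to 62 of the 78 genes, against 11.6% of all genes, and replicate 2 to 65, against 12.5%. The peak not found in both candidate lists was the one assigned to rps-18, with 248 in the optimal list and 105 in replicate 1. The nearest candidate of replicate 2 was 13142 bp away. Its summit lay in an untranslated exon of sec-61.A, a subunit of the translocon on the opposite strand, 77 bp downstream of that gene's start and at -492 bp from rps-18. Its window had the lowest GC content of the 61, 34.7%, where the median was 51.5%. Without this peak, 62 of 78 ribosomal protein genes had one.

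**Figure D3:**
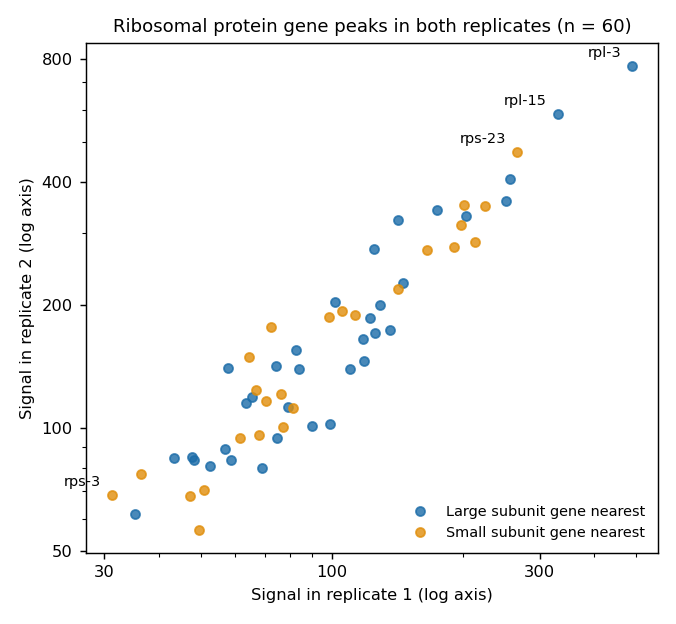
Signal in replicate 1 (horizontal log axis) and replicate 2 (vertical log axis) for the 60 peaks found in both, 1 point per peak, coloured by the subunit of the nearest member gene. The points follow a rising band from rps-3 (31.2 and 68.5) to rpl-3 (490 and 768), and the axes are not on a common scale.

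The summits stood at a narrow distance from the starts. For the strongest peak of each gene the median was -299 bp, with quartiles of -370 and -254.5 bp, and 47 of 63 genes (74.6%) had it between -400 and -200 bp. For the 2364 other genes with a peak the median was -243 bp, with quartiles of -461 and -128 bp, and 28.0% lay in that range. None of the 63 ribosomal protein genes had its summit downstream of its start, and 114 of the 2364 other genes did (4.82%). Downstream summits were thus few in both groups. Large subunit genes had a median of -299.5 bp and small subunit genes of -294 bp. The nearest summit was that of rpl-12, at -18 bp, and the next that of rpl-7A, at -60 bp. The rpl-7A peak had a signal of 403, with 125 in replicate 1 and 275 in replicate 2. The farthest were those of rpl-43, at -732 bp, and rps-27, at -611 bp. The rpl-43 peak had 462, with 142 in replicate 1 and 322 in replicate 2, and that of rps-27 had 175, with 67.8 and 96.0. The extreme positions thus held both strong and weak peaks. Mitochondrial ribosomal protein genes with a peak had a median of -175 bp over 17 genes, 4 of them between -400 and -200 bp. Ribosome biogenesis genes had -263 bp over 8 genes, 5 of them in that range, including lpd-7, which shares the rpl-9 peak. Other cytosolic ribosome genes had -253 bp over 4 genes, 2 of them in the range, and elongation factors -36 bp over 5 genes, 2 in the range. The range was thus not particular to the rpl- and rps- genes.

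**Figure D4:**
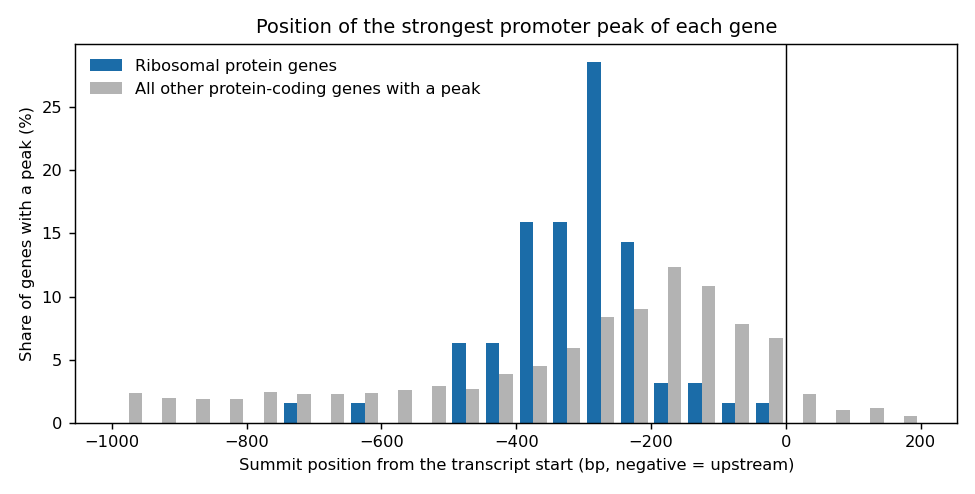
Position of the strongest promoter peak from the transcript start (horizontal axis, bp, negative is upstream, bins of 50 bp) for the 63 ribosomal protein genes with a peak (blue) and the 2364 other genes with a peak (grey), as a share of each group (vertical axis, percent). The blue bars gather between -400 and -200 bp, which holds 74.6% of the ribosomal protein genes and 28.0% of the others.

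The annotated starts were often splice acceptor sites by their letters. The splice acceptor letters TTTCAG stood directly before an annotated start in 43 of 78 ribosomal protein genes (55.1%), against 16.7% of other protein-coding genes and 38.6% of mitochondrial ribosomal protein genes. From the start to the first codon the median was 8 bases, close to the 10 bases of other protein-coding genes, and 2 bases in mitochondrial ribosomal protein genes. The 40 bases around the start are given for 3 strong genes picked because they have it, from the same assembly, with TTTCAG in capitals. Of the other 2 among the strongest 5, rpl-35 has no TTTCAG there, and at rps-23 it precedes another annotated start than the one from which the summit was counted. They lie at chrIII:3867824-3867863 (plus strand) for rpl-3, chrIV:654567-654606 (minus strand) for rpl-15 and chrIV:4749769-4749808 (minus strand) for rpl-20.
rpl-3: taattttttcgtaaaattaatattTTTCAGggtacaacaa
rpl-15: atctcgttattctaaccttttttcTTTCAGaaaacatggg
rpl-20: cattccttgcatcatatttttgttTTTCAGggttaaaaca
In these 3 genes the base after the capitals is the annotated start from which the position of the summit was counted. How far the summits lie from the base at which transcription begins was not tested.

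The peaks differed from other promoter peaks in further ways that the choice of genes did not use. The regions were narrower, with a median of 274 bp against 416 bp. A width of exactly 416 bp recurred, however, and was both the median and the upper quartile of the other promoter peaks. The ribosomal protein peaks 416 bp wide had signals of only 96.0 to 187, whereas the strongest peak, that of rpl-3, was the widest at 491 bp. The difference in medians thus depends on how many peaks have that 1 width. The other promoter peaks were weaker, with a median signal of 168 against 244, and widths were not compared at equal signal. The 101 bases at the summit had a median GC content of 51.5%, against 46.5%. Of the 61 summits, 59 (96.7%) lay between genes, against 75.8% of the others. The exceptions were that of rps-18 and that of rpl-24.2, in an intron of C03D6.1. No summit of the list lay inside the body of any of the 78 genes, although 14 of them host small RNA genes, 13 of these with a peak upstream. In small RNA genes nearby the peaks were close to the others: such genes lay within 250 bp of 2 summits (3.28%), a snoRNA gene each at rps-26 and rps-12, against 4.21% of other promoter peaks.

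Many of the peaks were shared with another gene. Of 61, 43 (70.5%) lay in the windows of several protein-coding genes, against 27.8% of other promoter peaks, and 18 in that of 1 gene. For the genes of these 18 the median position was -315.5 bp, with quartiles of -359 and -266 bp. In 38 peaks the other gene was on the opposite strand, and its start was the nearer one in 24 of them. The rpl-30 summit, for example, lay at -368 bp from rpl-30 and at -10 bp from pab-1, which encodes a poly(A)-binding protein. In these 38, the summit was a median of -298.5 bp from the ribosomal protein gene and of -193.5 bp from the other gene. Which of both genes a shared peak belongs to was not tested. Pairs of ribosomal protein genes shared 3 peaks. That of rps-30 and rpl-39 had a signal of 311, with 105 in replicate 1 and 193 in replicate 2. That of rpl-24.1 and rps-10 had 204, with 99.1 and 102 in replicates 1 and 2, and that of rps-14 and rpl-36 had 197, with 66.7 and 124. Each of the 3 serves 1 gene of either subunit.

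Gene order around the ribosomal protein genes differed from that of others. The upstream neighbour was on the opposite strand for 52 of 78 (66.7%), against 42.1% of other genes. With such a neighbour 46 of 52 ribosomal protein genes had a peak (88.5%), against 17.0% of other genes. With a neighbour on the same strand 16 of 24 had one (66.7%), against 7.98%. Both arrangements thus showed the higher share. Peaks were found on every chromosome, at 19 of 23 genes on chromosome I, 7 of 10 on II, 16 of 18 on III, 14 of 17 on IV, 6 of 8 on V and 1 of 2 on X. The share of other genes with a peak was 15.6% on chromosome I, 12.2% on II, 17.2% on III, 9.96% on IV, 7.68% on V and 12.5% on X.

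The 15 genes without a peak were 11 of the large subunit (rpl-10, rpl-16, rpl-18, rpl-19, rpl-25.1, rpl-26, rpl-27, rpl-28, rpl-37, rpl-41.1 and rpl-42) and 4 of the small subunit (rps-2, rps-6, rps-8 and rps-16). Most had candidate regions outside the optimal list. The candidate lists hold 30000 regions per replicate, background included, and 70 of the 78 genes had a candidate of both replicates, against 30.2% of all genes. Of the 15 genes, 8 had candidates of both replicates, 5 of 1 replicate and 2 of neither. Those of neither were rps-2 and rps-16. Just outside the optimal list stood rps-8 and rps-6, whose mammalian counterpart is the target of S6 kinase, with pooled signals of 83.6 and 82.0, where the lowest listed signal was 95.1 and the lowest at a ribosomal protein gene 96.0. The rps-8 candidates had 28.7 in replicate 1 and 51.9 in replicate 2. Those of rps-6 had 29.7 at -27 bp in replicate 1 and 63.1 at -290 bp in replicate 2, so they were different places.

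Some of the 15 had candidates as strong as those of listed genes. At rpl-26 replicate 1 had 41.5 (rank 3805) and replicate 2 had 74.0 (rank 2656), at -275 and -262 bp. At rpl-19 replicate 1 had 62.9 (rank 1949) and replicate 2 had 55.0 (rank 3903), at -266 and -244 bp. At rpl-10, among the last proteins to join the large subunit in yeast, replicate 1 had 24.1 and replicate 2 had 60.7, at -466 and -427 bp. These 3 genes had no pooled candidate at that place. A candidate of 1 replicate only was seen at rpl-18, with 83.7 in replicate 2 at -147 bp, and at rpl-28, with 63.4 in replicate 1 at -375 bp. In 1 replicate only, rpl-16, rpl-25.1 and rpl-42 had candidates of 11.3, 20.4 and 23.1, and in the pooled list of 20.8, 27.9 and 49.6. Those of rpl-27 had 20.8 and 16.8 in replicates 1 and 2, and those of rpl-37 had 13.1 and 12.8, in each case at places over 300 bp apart.

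The distance to the upstream neighbour had a lower median in genes without a peak, but the ranges overlap. They ran from 0 to 3256 bp without a peak and from 0 to 14392 bp with one. In the 63 genes with a peak the gap to the upstream neighbour had a median of 589 bp, and it was under 300 bp in 4 of them. In the 15 genes without a peak the median was 364 bp, and it was under 300 bp in 5. The rps-16 gene lies 109 bp downstream of fib-1 on the same strand, and the nearest peak, with a signal of 410, was upstream of fib-1, at -1754 bp from rps-16. For rpl-16 the nearest peak, with a signal of 191, was at -1774 bp, beyond a neighbour 105 bp away. Whether such genes are transcribed together with the neighbour was not tested.

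Gene pairs numbered as paralogues did not match in strength. The rpl-11.2 peak had 373, with 145 in replicate 1 and 226 in replicate 2, and that of rpl-11.1 had 131, with 48.2 and 83.7. The order was the same in both replicates. A peak of 325, with 129 in replicate 1 and 200 in replicate 2, was found at rpl-41.2, and none at rpl-41.1, whose strongest candidates had 29.4 in replicate 1, 39.5 in replicate 2 and 65.1 in the pooled list. Of the other pair, rpl-25.2 had a peak of 129, with 47.7 in replicate 1 and 85.0 in replicate 2, and rpl-25.1 none. The pair rpl-24.1 and rpl-24.2 was closer, with 204 and 170. In replicate 1 these had 99.1 and 74.7, and in replicate 2, 102 and 94.7.

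Genes of related function were compared by count. Mitochondrial ribosomal protein genes had a peak in 17 of 70 cases (24.3%, 14.8% to 36.0%), against 11.9% of all genes that are not cytosolic ribosomal protein genes. Among the 6 other cytosolic ribosome genes 4 had one: ubl-1, which encodes a ubiquitin-like protein fused to a small subunit protein, had 223, ubq-2 had 195, rla-0 had 118 and rack-1 had 110, and rla-1 and rla-2 had none. Among elongation factors 5 of 6 had one, led by eef-1A.2 with 678 and eef-1A.1 with 475, both of which encode the factor that brings aminoacyl-tRNA to the ribosome. Their summits lay at -390 and -386 bp, whereas those of eef-1B.1, eef-1G and eef-2 lay between -36 and 1 bp. Ribosome biogenesis genes had one in 8 of 17 cases, with fib-1 the strongest at 410, at -72 bp. The peak of 1 of these 8, lpd-7, is the rpl-9 peak with a signal of 192.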

How the data were processed

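Per the labels and the list of files that comes with each sample, the authors deposited candidate regions for each replicate and for both pooled, each called against a control alignment, and an optimal IDR list from both replicates, on ce10 and ce11. The signal of each region is the deposited value of the authors and was used as it stands. The sources used here name neither aligner nor peak caller. Only the ce11 lists were used. Genes came from Ensembl release 115 (WBcel235, 29784 transcript starts of all transcripts of protein-coding genes), and sequence from RefSeq's copy of that assembly. A summit was assigned to every gene in whose window it lay, and a gene's position and signal are those of its strongest peak. A large or small subunit peak is one in the window of such a gene. Motif windows were 101 bases. Intervals are 95% exact Clopper-Pearson intervals (SciPy 1.17.1) and cover counting error over genes or peaks only, which are not replicates of a condition.

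The genes, lists, windows and motifs were chosen with earlier results of these data known, and the 6 words after the sequences had been seen. With 1 group of 2 replicates no condition was compared and no test was made. Any member could be named; full values are given for the 10 strongest and 5 weakest, those without a peak, peaks shared by 2 members, paralogues and the extreme positions. Summit assignment and word search were checked on simulated data. Alternatives were the 1765 strongest peaks, 1 replicate alone, other windows and distances, only the most upstream start, and only peaks in the window of 1 gene.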

Additional observations from a re-analysis of the deposited data

How the results depend on the processing

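With 1 replicate alone, taking as many of its strongest candidates as the optimal list holds, between 62 and 65 ribosomal protein genes had a peak, 37 to 39 of the large and 25 to 26 of the small subunit. The median percentile of their signal was 71.3 to 75.2, against 74.9 in the optimal list, the median summit position -296 to -291 bp, the share with a core 39.7% to 40.7%, and 41 to 48 peaks held a word. Of the 63 genes, 61 had a peak with replicate 1 left out (4 others gained one) and 60 with replicate 2 left out (2 others gained one). Among the 1765 strongest peaks the percentile was 65.8, counted within these, and the position -292 bp. Counting only peaks in the window of 1 gene, 18 of the 78 genes kept one, 10 of the large and 8 of the small subunit. Of the 19895 other protein-coding genes, 1268 had their strongest peak in the window of 1 gene. The 18 peaks had a median percentile of 66.7 and a position of -315.5 bp, and 14 of 18 held a word. This setting leaves out every shared peak by construction. Within 25 bp of the summit the core share was 19.7%, in a shorter window, and within 100 bp 45.9%, in a longer one. Windows of 500 or 2000 bp gave 61 and 65 genes, and the share of all genes was not counted for these windows. All other counts stayed within 1.5 times, and 47 genes had a peak in every setting but that of 1 gene only. Most shared peaks could be either gene's, and the unknown depth limits the weakest peaks.

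No paired analysis was possible because there is 1 group of 2 samples and no comparison between groups.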
